A study of Caenorhabditis elegans with 80 samples.

Results

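The genes described here are 10 proteases of the Caenorhabditis elegans gut, 5 of the cathepsin B-like cysteine type (cpr-1, cpr-3, cpr-4, cpr-5 and cpr-6) and 5 of the aspartyl type (asp-1, asp-3, asp-4, asp-5 and asp-6). They were chosen by name, and all their probes on the array were taken. Of the 10 genes, 9 had 1 probe each, so that 9 of 23232 probes on the array are described, and no probe carried the name of cpr-6, which was therefore not analysed here. The genes cpr-1, cpr-3, cpr-4, cpr-5, asp-1, asp-5 and asp-6 lie on chromosome V, and asp-3 and asp-4 lie on chromosome X.

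The worms came from recombinant inbred strains, numbered with the prefix WN, of a cross between the wild types N2 (Bristol) and CB4856 (Hawaii). Each strain was propagated by selfing of hermaphrodites, so that it carries a fixed mosaic of both parental genomes. Whole worms of the L3 larval stage, fed on the Escherichia coli strain OP50, were taken at 72 h of age at 16 °C and at 40 h of age at 24 °C. On each array the total RNA of 2 strains was set against each other, one strain in Cy3 and the other in Cy5, on 40 arrays per temperature. No array held a parental strain or both temperatures.

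Each value is the normalised ratio between the 2 strains of an array, read as log2, and written as the pair WN70/WN48 with the Cy3 strain first. The sources do not say which strain is the numerator, so a sign tells only whether arrays moved the same way. A ratio holds no expression level, and it does not tell a difference in transcript amount from a base difference under the probe. In RNA of whole worms, a smaller share of gut RNA and less RNA of a gene within the gut cannot be told apart. Since no levels are given, expression of the proteases in the gut could not be checked against gut markers. At 16 °C the labels name 78 strains, at 24 °C 77, because WN38 and WN80 stand on 2 arrays at both temperatures and WN65 on 2 arrays at 24 °C. The same strain pair on the same dyes was present at both temperatures 39 times, and 5 of these pairs hold a recurring strain. The SD over all probes lay between 1.04 and 1.48 on the arrays at 16 °C and between 1.16 and 1.65 at 24 °C, and no 2 arrays were identical.

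The nematode gut takes up bacteria ground by the pharynx and digests them in its lumen and in the lysosomes of its cells. Cysteine proteases of the cathepsin B family cut proteins with a cysteine in the active site, and aspartyl proteases of the cathepsin D and pepsin family use a pair of aspartates and work best in acid. Members of the aspartyl family, among them asp-3 and asp-4, are also known in C. elegans as executioners of necrotic cell death. Yolk, autophagic cargo and phagocytosed corpses are degraded in the same acid compartments.

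The 4 cysteine proteases with a probe differed by more than 2-fold between strains on 5 to 15 of 40 arrays, compared with a median over all probes of 11 arrays at 16 °C and 13 at 24 °C. The log2 ratio of cpr-1, a gut cysteine protease, ranged at 16 °C from -1.49 in WN43/WN40 over a median of 0.16 to 1.55 in WN14/WN18, and at 24 °C from -2.87 in WN75/WN66 over -0.03 to 1.82 in WN70/WN48. The ratio exceeded 2-fold on 10 of 40 arrays at 16 °C and on 11 at 24 °C. For cpr-3, another cathepsin B-like protease, the range was -1.93 in WN45/WN12 to 3.26 in WN29/WN78 at 16 °C (median -0.21) and -2.04 in WN36/WN72 to 1.93 in WN31/WN44 at 24 °C (median 0.13). The 16 °C value in WN29/WN78 was the highest ratio of any of the 9 probes, followed for cpr-3 by 2.24 in WN75/WN66.

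The ratio of cpr-4, which encodes a cathepsin B that is also known to be secreted, ranged from -1.55 in WN76/WN59 to 2.03 in WN70/WN48 at 16 °C (median -0.11). At 24 °C it ranged from -1.81 in WN45/WN12 to 2.75 in WN60/WN77, with a median of -0.34 and 11 of 40 arrays above 0. For cpr-5 the lowest value was found in WN2/WN52 at both temperatures, -1.40 at 16 °C and -2.57 at 24 °C, whereas the highest values, 2.0 and 2.39, came from different pairs, WN29/WN78 and WN76/WN59. At 24 °C the cpr-5 ratios lay mostly on one side, with a mean of -0.32 and 11 arrays beyond 2-fold below 0 against 3 above it.

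The aspartyl proteases exceeded 2-fold on fewer arrays, 0 to 4 of 40. The ratio of asp-1, which is expressed in the gut, ranged from -1.48 in WN71/WN79 to 1.22 in WN17/WN33 at 16 °C (median 0.03) and from -0.92 in WN46/WN69 to 1.27 in WN54/WN6 at 24 °C (median -0.11). The ratio of asp-3 lay between -0.84 in WN76/WN59 and 1.50 in WN5/WN25 at 16 °C (median 0.06) and between -1.22 in WN15/WN35 and 0.53 in WN43/WN40 at 24 °C (median -0.08). The other cathepsin D-like gene, asp-4, lay between -1.21 in WN61/WN39 and 1.63 in WN5/WN25 at 16 °C (median -0.14) and between -1.43 in WN27/WN56 and 1.08 in WN60/WN77 at 24 °C (median -0.02). Thus asp-3 and asp-4 had their highest 16 °C ratio in the same pair, WN5/WN25, although r between the 2 genes over all 40 arrays was only 0.02.

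For asp-5 the ratio ranged from -1.49 in WN61/WN39 to 2.79 in WN70/WN48 at 16 °C (median 0.24) and from -1.23 in WN45/WN12 to 1.07 in WN24/WN49 at 24 °C (median 0.00). At 16 °C it was above 0 on 30 of 40 arrays, the most one-sided of the 9 probes at that temperature, and at 24 °C on 20. Its neighbour asp-6 ranged from -1.88 in WN43/WN40 to 1.59 in WN70/WN48 at 16 °C (median 0.14) and from -0.97 in WN19/WN55 to 0.97 in WN24/WN49 at 24 °C (median -0.04), where no array exceeded 2-fold. The same 2 pairs, WN70/WN48 at 16 °C and WN24/WN49 at 24 °C, gave the highest ratio of both genes.

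**Figure D1:**
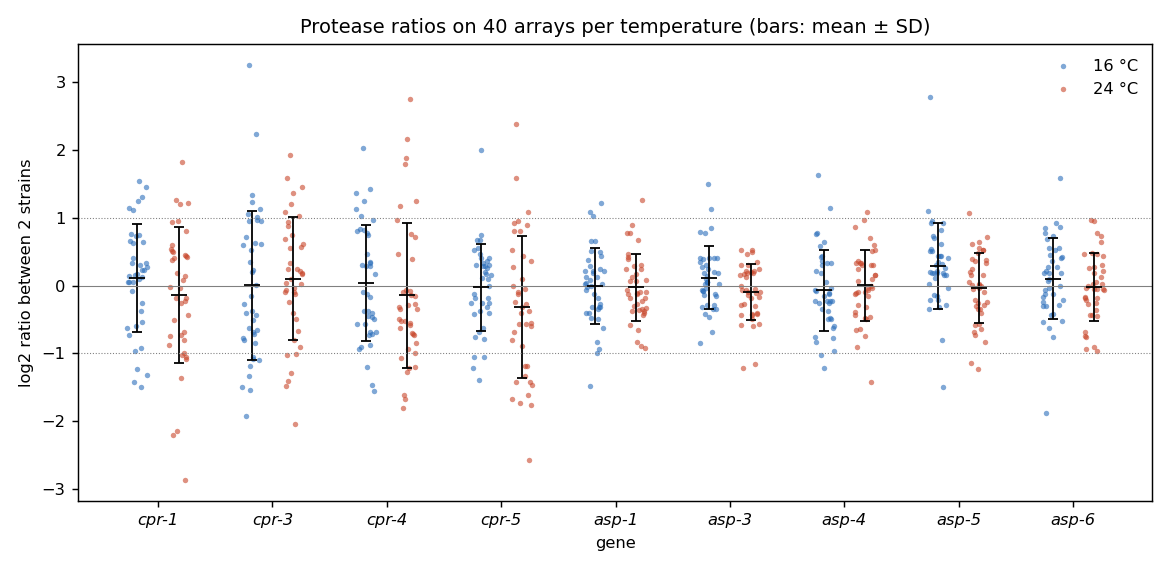
Log2 ratio between the 2 strains of each array for the 9 protease probes, with 40 points per gene at 16 °C (blue) and 40 at 24 °C (red). Black bars give the mean ± SD and dotted lines mark a 2-fold difference. The ratios of the 5 asp genes stayed closer to 0 than those of most cpr genes, and the cpr-5 points at 24 °C spread more widely than at 16 °C.

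Over the 40 arrays the ratios of the aspartyl proteases spread less than those of the cysteine proteases, apart from cpr-5 at 16 °C, whose SD of 0.64 equalled that of asp-5. Over all probes the median SD was 1.05 at 16 °C and 1.11 at 24 °C, with quartiles of 0.78 to 1.33 and 0.83 to 1.41. The 5 asp probes had SDs of 0.46 to 0.64 at 16 °C and of 0.41 to 0.52 at 24 °C, and all of them were under the lower quartile at both temperatures. The smallest spread was that of asp-3 at 24 °C, an SD of 0.41, which stands at the 0.396 percentile of all probes. The 4 cpr probes had SDs of 0.64 to 1.10 at 16 °C, from the 12.5 to the 55 percentile, and of 0.91 to 1.07 at 24 °C, from the 31.8 to the 46.4 percentile. The SD holds the error of an array as well as the difference between strains, the strength of each spot is not in the values used here, and its part in the narrow spread of the asp probes was not tested. The 20 probes of the vacuolar ATPase, the proton pump that acidifies lysosomes, had similarly low SDs, with medians of 0.57 and 0.53. This was not particular to lysosomal genes, since 8 probes of body wall muscle had medians of 0.47 and 0.57 and ribosomal protein probes 0.51 and 0.51. The 11 probes of a lysosomal list had 0.74 and 0.75, and the 9 of lysosomal lipases 1.70 and 1.41.

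Whether strains differed more at one temperature was tested over the 39 matched pairs with the Pitman-Morgan test for paired variances, with Benjamini-Hochberg adjustment over all 23232 probes. Of the 9 proteases only cpr-5 passed at an adjusted p of 0.05. Its SD rose from 0.64 at 16 °C to 1.05 at 24 °C, a ratio of 1.64 (adjusted p = 0.04). On the whole array 6.12% of probes passed with the wider spread at 24 °C and 3% with the wider spread at 16 °C, so 1 of 9 is not far from the share on the array. The call for cpr-5 did not hold under several other settings. With every array scaled to the same spread the adjusted p was 0.13, with the temperatures scaled to the same median SD 0.082, without the recurring strains 0.075 and with ranks 1. Leaving out any one of 10 pairs also ended it, most of all WN76/WN59 (adjusted p = 0.085). For cpr-1 and cpr-4 the SD at 24 °C was 1.32 and 1.25 times that at 16 °C, and the adjusted p was 0.27 and 0.42. For all 5 asp genes the SD at 24 °C was 0.80 to 0.88 times that at 16 °C, and the lowest adjusted p among them was 0.44, for asp-5.

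**Figure D2:**
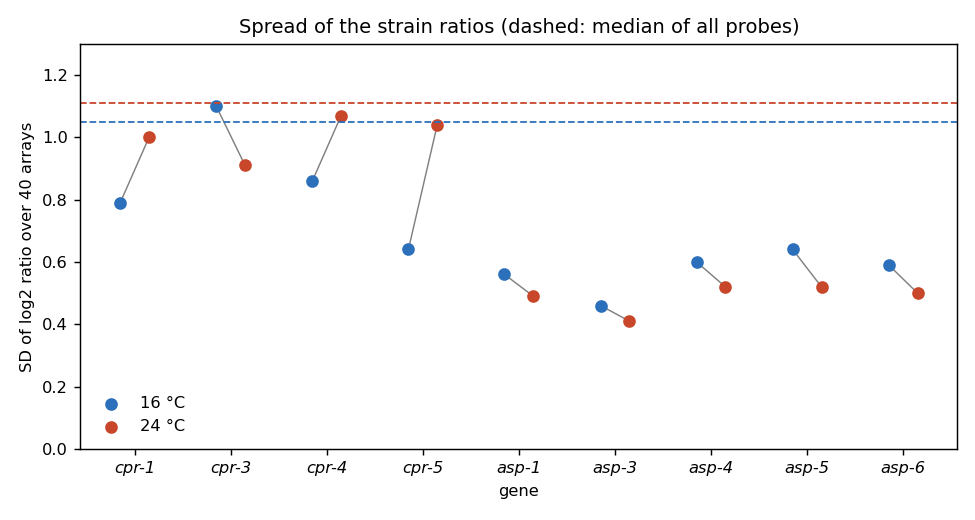
SD of the log2 ratio over 40 arrays for each protease at 16 °C (blue) and 24 °C (red), with dashed lines at the median SD of all probes at the same temperatures, 1.05 and 1.11. The 5 asp genes lie between 0.41 and 0.64, and the steepest line joins the cpr-5 values.

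Next it was asked whether a strain pair that differed at 16 °C also differed at 24 °C, where worms were grown and hybridised anew. No protease passed the test on r between temperatures over the 39 pairs (0 of 9 at an adjusted p of 0.05), compared with 1.04% of all probes with a positive r and 0.0258% with a negative one. At an unadjusted p of 0.05 the count was 0 of 9 as well. The highest r was that of cpr-1, 0.299 with a 95% interval of -0.0187 to 0.561 (rho 0.313, permutation p 0.065 for r and 0.053 for rho, adjusted p 0.7). It was 0.407 once the 2 pairs with the most extreme 16 °C ratios were dropped. For cpr-3 r was 0.273 (interval -0.0467 to 0.542, rho 0.244, permutation p 0.093 and 0.14, adjusted p 0.76), and it fell to 0.183 when they were dropped likewise. The other 7 had r between -0.00527 for asp-4 and 0.189 for asp-3, with adjusted p from 0.91 to 1. The upper ends of their intervals lay between 0.311 for asp-4 and 0.476 for asp-3, so that weak repeatability could not be told from none with 39 pairs. The median r of the 9 probes was 0.0895, against 0.032 over all probes.

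Single pairs showed both outcomes. In WN70/WN48 the cpr-4 ratio was 2.03 at 16 °C and 2.17 at 24 °C, and in WN2/WN52 the cpr-5 ratio was -1.40 and -2.57. The cpr-3 ratio was low at both temperatures in WN45/WN12, -1.93 and -1.48, and in WN76/WN59, -1.54 and -1.41. The sign turned for cpr-4 in WN76/WN59, from -1.55 to 1.88, and in WN45/WN12, from 1.37 to -1.81. It also turned for cpr-5 in WN76/WN59, from -1.06 to 2.39, and in WN43/WN40, from -1.22 to 1.59. In WN76/WN59 cpr-3 thus kept its ratio while cpr-4 and cpr-5 changed sides. These pairs were picked as extremes and are given as description.

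**Figure D3:**
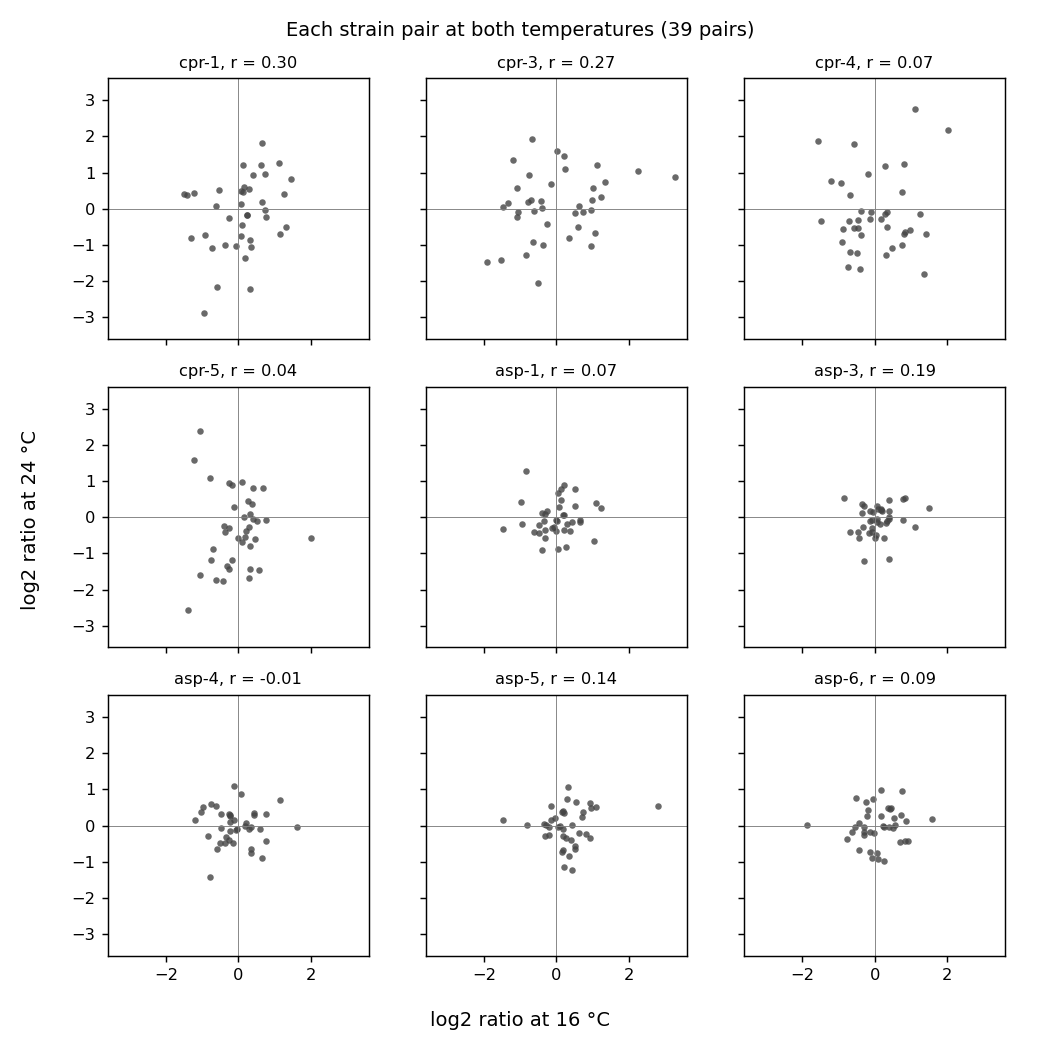
Log2 ratio of each of the 39 matched strain pairs at 16 °C (horizontal) and 24 °C (vertical), with a panel per protease and its Pearson r. Points do not follow a line in any panel, and r ranges from -0.00527 for asp-4 to 0.299 for cpr-1.

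Arrays that shared a strain on opposite dyes were compared next. If the shared strain alone set the ratio, its 2 arrays should have opposite signs. This was seen in 27 of 45 comparisons of 9 proteases over 5 array pairs, most often for WN80 at 24 °C (7 of 9) and least often for WN38 at 16 °C (4 of 9). Signs at random would give opposite and same signs about equally often, and the 9 genes of an array pair are not separate observations. The partner strains differ on these arrays, and no test was made.

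Covariation was examined by correlating each protease, over the 40 arrays of a temperature, with all 23231 other probes, and adjusting p over these. Of the 36 pairs among the 9 proteases, 1 passed at 16 °C and 0 at 24 °C, and 6 and 3 had an unadjusted p under 0.05. Of the 23231 other probes, 1387 to 2716 per protease had an unadjusted p under 0.05 at 16 °C and 1276 to 3248 at 24 °C. With asp-5 as the starting gene, 0.0387% of the other probes were called with a positive r at 16 °C, and with asp-6 0.00861%. The median r of the 36 pairs was 0.115 at 16 °C and 0.0998 at 24 °C, and 26 and 22 of them were positive. Only 20 of the 36 had the same sign at both temperatures. The 6 pairs of cysteine proteases had a median r of 0.0977 and -0.0368, and the 10 pairs of aspartyl proteases 0.144 and 0.00965.

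**Figure D4:**
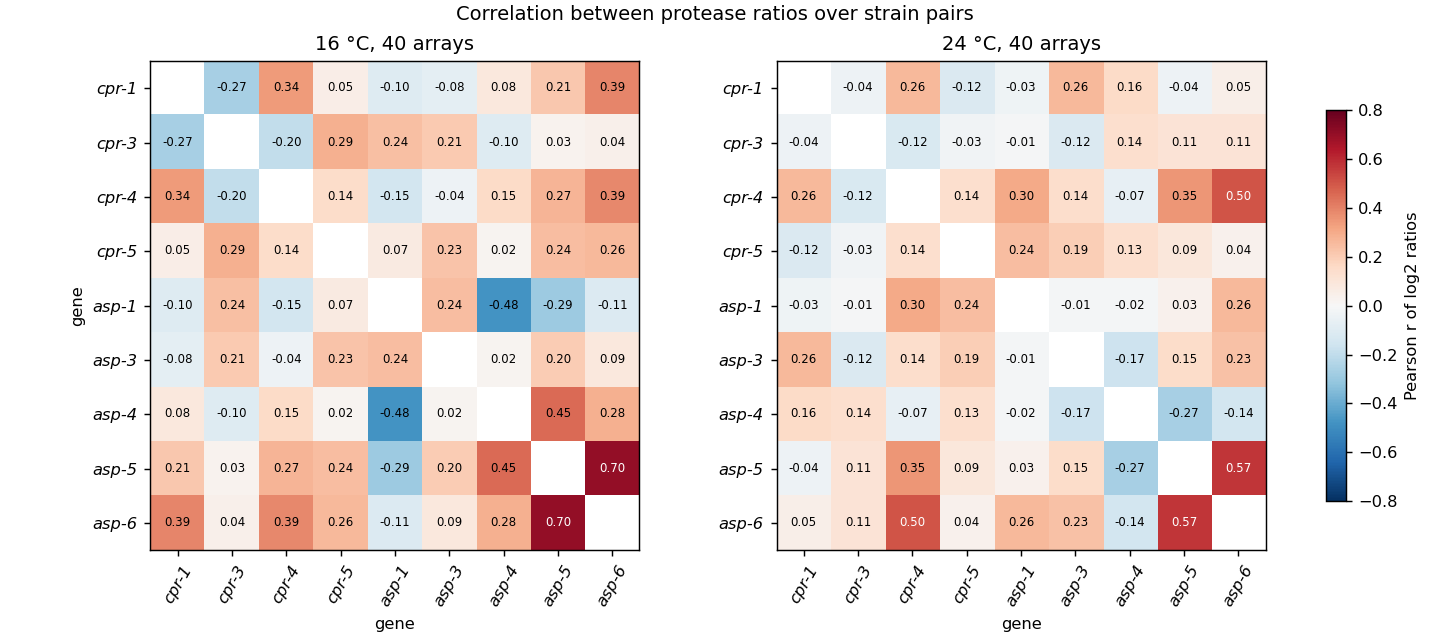
Pearson r between the log2 ratios of the 9 proteases over 40 arrays at 16 °C (left) and 24 °C (right). Red is positive and blue negative, and the asp-5 and asp-6 square is the darkest in both panels, 0.70 and 0.57.

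The pair that passed was asp-5 and asp-6, which share a chromosomal cluster and have 1 gene between them, the further aspartyl protease asp-12. On the 40 arrays at 16 °C r was 0.703 (rho 0.588, adjusted p = 0.005 with asp-5 as the starting gene and 0.0099 with asp-6), and with ranks it was not called (adjusted p = 0.15). At 24 °C r was 0.57 (rho 0.556, permutation p 1.2e-04 for r and 2.4e-04 for rho), which did not pass the adjustment over all probes (adjusted p = 0.39 and 0.062). In both directions each was the probe most alike to the other among 23231, likeness being the smaller r of the 2 temperatures. The 2 ratios had the same sign on 28 of 40 arrays at 16 °C and on 30 of 40 at 24 °C. The array WN70/WN48, with 2.79 for asp-5 and 1.59 for asp-6, weighed on the 16 °C value, since without it r was 0.63 and the adjusted p 0.12. On the same strain pair at 24 °C the ratios were 0.53 and 0.19. The low end at 16 °C was formed by WN61/WN39, -1.49 and -0.76, and by WN43/WN40, -0.81 and -1.88. The change in r from 16 °C to 24 °C, -0.133, had a p of 0.33. When the arrays of both temperatures were pooled after centring within each, a choice made after seeing the data, r was 0.648 over 80 arrays (adjusted p = 2.4e-06). Since 39 strain pairs stand in both temperatures, the pooled arrays are not fully independent, and every pooled p treats them as if they were.

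For comparison with genes in general, over 16293 pairs of adjacent probed genes the median r was 0.0306 at 16 °C and 0.0385 at 24 °C. The gene between them, asp-12, had a far wider spread, with SDs of 2.56 and 2.40 and ratios from -6.61 in WN61/WN39 to 6.77 in WN29/WN78 at 16 °C. Its r with asp-5 was 0.315 and 0.229, and with asp-6 0.369 and 0.0927, none of which passed. Hybridisation of transcripts of one paralog to the probe of the other was not tested, because no probe sequences were used here.

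The ratio of asp-6 also moved with that of cpr-4, with r of 0.386 at 16 °C and 0.503 at 24 °C (rho 0.286 and 0.499). Neither passed at a single temperature (lowest adjusted p 0.35 and 0.1), and over the pooled arrays r was 0.438 (adjusted p = 0.0084). Apart from asp-5 and asp-6, this was the only pair of proteases with r above 0.3 at both temperatures. Some weaker relations were similar at both temperatures, such as cpr-1 with cpr-4 (r of 0.34 and 0.257) and cpr-4 with asp-5 (0.273 and 0.353). Others had unlike values. The genes asp-4 and asp-5 had r of 0.451 at 16 °C and -0.266 at 24 °C, and asp-1 and asp-4 had -0.477 and -0.0182. None of the 36 changes in r between temperatures passed the adjustment (0 of 36), and 3 had an unadjusted p under 0.05. The change for asp-4 with asp-5, -0.717, was the largest (p = 0.0011, adjusted p = 0.24 and 0.81).

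Among all genes, the closest companion of any protease was aqp-11 on chromosome III, a member of the aquaporin family of water channels, whose ratio followed that of asp-4. At 16 °C r was 0.766 (rho 0.737, adjusted p = 2.0e-04) and at 24 °C 0.669 (rho 0.665, adjusted p = 0.0078). It was the only probe called with the same protease at both temperatures. The aqp-11 ratio ranged from -1.07 in WN43/WN40 to 1.36 in WN5/WN25 at 16 °C (median -0.19) and from -1.72 in WN2/WN52 to 1.28 in WN4/WN73 at 24 °C (median -0.10). It had the sign of asp-4 on 31 of 40 and on 29 of 40 arrays. The pair WN5/WN25 was highest for both genes at 16 °C. Without the 2 arrays farthest from the median r was 0.688 and 0.681, and leaving out single arrays kept it between 0.713 and 0.79 at 16 °C and between 0.626 and 0.716 at 24 °C. Without the arrays of recurring strains the adjusted p at 24 °C was 0.067. Between the temperatures, r over the 39 pairs was -0.0681 for aqp-11 itself (adjusted p = 0.98) and -0.00527 for asp-4.

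**Figure D5:**
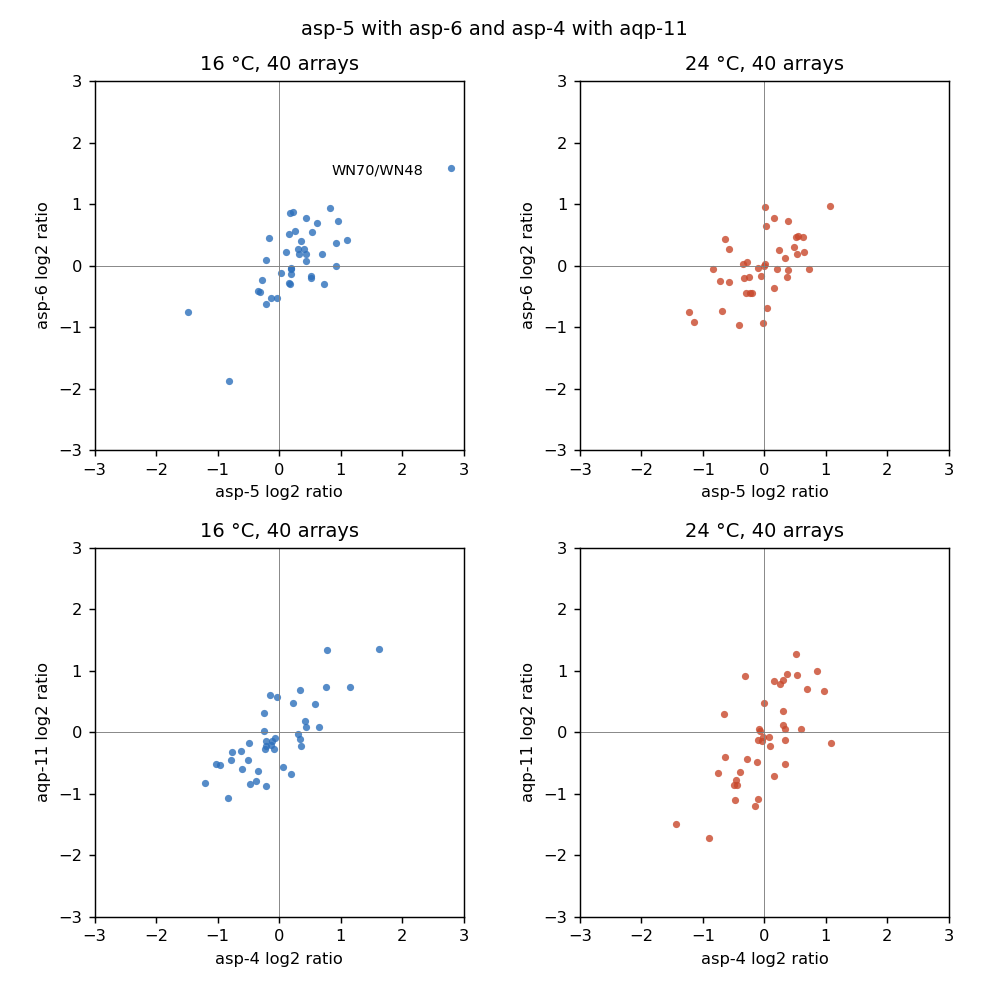
Log2 ratios of asp-5 and asp-6 (top) and of asp-4 and aqp-11 (bottom) on the 40 arrays at 16 °C (blue) and 24 °C (red). Pearson r is 0.703 and 0.57 for the top panels and 0.766 and 0.669 for the bottom panels, and the array WN70/WN48 lies apart from the rest in the upper right of its panel.

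The other companions of asp-4 by likeness were snr-3, which encodes a core protein of the spliceosome (r of 0.556 and 0.563), and ndua-8, a subunit of mitochondrial complex I (0.664 and 0.553). The last passed at 16 °C (adjusted p = 0.0098) and not at 24 °C (0.066). In all, asp-4 had 24 positive and 39 negative calls at 16 °C, 0.103% and 0.168% of the other probes, and 47 positive and 6 negative calls at 24 °C, 0.202% and 0.0258%. The counts hung on few arrays. At 16 °C there were 6 calls without WN5/WN25 and 100 without WN61/WN39, and at 24 °C 10 without WN14/WN65 and 97 without WN27/WN56. Of the 24 positive calls at 16 °C, 20 had a positive r at 24 °C, whereas of the 39 negative calls only 19 were negative there.

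Ribosomal protein genes stood out among the negative relations of asp-4 at 16 °C, a set picked after its values were seen. Of 68 probes named rps or rpl, 60 had a negative r with asp-4 at 16 °C and 12 were called negative, with a median r of -0.423. At 24 °C the median was 0.00721, 36 of 68 were positive and 0 were called. With asp-1 the same probes had a median r of 0.351 at 16 °C, 60 of 68 positive, and of 0.11 at 24 °C, with no calls. Without WN54/WN6 the latter median was -0.043, with 29 of 68 positive. Both genes had r of -0.477 with each other at 16 °C, so their opposite relations are not separate observations. A one-sided lean was not particular to these genes. With cpr-4 the median r was -0.282 at 16 °C, 7 of 68 positive, and -0.139 at 24 °C, 16 of 68 positive. With cpr-3 it was 0.175 at 16 °C, 63 of 68 positive, and -0.0165 at 24 °C, 31 of 68 positive. Neither had a call among these probes. Leaving out WN5/WN25 moved the asp-4 median to -0.336 and left 1 call. The median rho of the 68 probes with asp-4 at 16 °C was -0.337. With ranks only 3 probes of the whole array were called with asp-4 there. All 68 were set against the same asp-4 ratios on the same arrays, so they are not separate observations. The difference between temperatures itself passed for 9 probes with asp-4 (0.0387% of the other probes). Among the named ones were rps-13 and rps-25 of the small ribosomal subunit and ubq-2, a ubiquitin joined to a ribosomal protein. The r of asp-4 with rps-13 was -0.636 at 16 °C and 0.396 at 24 °C (adjusted p of the difference 0.0056). With ranks 1 difference was called in place of 9, and it was not that of rps-13 (adjusted p = 0.25). For asp-3 the difference passed for 1 probe (0.0043%), fat-6, a stearoyl-CoA desaturase of fat synthesis, whose r of 0.702 at 16 °C stood against -0.238 at 24 °C (adjusted p = 0.038). This call ended without any one of 21 pairs, with the highest adjusted p, 0.25, without WN5/WN25. With ranks it did not pass either (adjusted p = 0.23).

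For cpr-4 the calls fell at 24 °C, where 74 probes were called with a positive r and 2 with a negative r, 0.319% and 0.00861% of the other probes. Of the 74, 70 also had a positive r at 16 °C, where none was called, and the median r of the 74 was 0.597 at 24 °C and 0.299 at 16 °C. Without WN75/WN66, 11 probes of the whole array were called with cpr-4 at 16 °C. Without WN45/WN12, which had the lowest cpr-4 ratio, there were 9 calls, without WN70/WN48 127, and without the recurring strains 5. Its companions were EEED8.12 (r of 0.557 and 0.621), the complex I subunit gene ndub-2 (0.544 and 0.641) and snb-1, the synaptobrevin of synaptic vesicles (0.554 and 0.542). EEED8.12 and ndub-2 passed at 24 °C (adjusted p = 0.021 and 0.016), and all 3 passed with the temperatures pooled. Another probe of snb-1, which lies 6 genes from cpr-4, had r of 0.276 at both temperatures (adjusted p = 0.57 and 0.58).

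The genes cpr-1, cpr-5 and asp-1 had no call at either temperature. Of the 23231 other probes, 1276 to 2716 had an unadjusted p under 0.05, which a share of 0.05 would have with no relation at all. With ranks, 12 probes were called with cpr-1 at 16 °C, and 9 at 16 °C and 6 at 24 °C with cpr-5. Leaving out WN64/WN63 gave 7 calls with cpr-1 at 16 °C, and leaving out WN43/WN40 gave 7 with cpr-5 there. Closest to cpr-1 were thn-2, a thaumatin family gene (r of 0.605 and 0.572), dod-3, named as a target of the DAF-16 pathway (0.491 and 0.558), and asah-1, an acid ceramidase of the lysosome (0.485 and 0.574). On the arrays where cpr-1 was lowest, WN43/WN40 at 16 °C and WN75/WN66 at 24 °C, thn-2 was lowest too, at -2.62 and -3.19. The companions of cpr-5 were the mitochondrial prohibitin gene phb-1 (0.514 and 0.583, the latter called with ranks, adjusted p = 0.047), ptrn-1, which encodes a protein that binds microtubule ends (0.542 and 0.499), and rfgp-1 (0.487 and 0.56). Those of asp-1 were the cuticle collagen genes col-155 (0.522 and 0.513) and col-94 (0.465 and 0.408). With them stood a probe of the nuclear hormone receptor gene nhr-145 (0.403 and 0.402), with rho of 0.183 at 24 °C. The other probes of nhr-145 had r of 0.133 and -0.167, and of -0.0761 and 0.171, with asp-1. In the pooled fit, with its repeated strain pairs, the adjusted p was 3.5e-04 for thn-2, 0.0066 for phb-1 and 0.017 for col-155.

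For cpr-3 8 probes were called at 16 °C, all positive (0.0344%), and 0 at 24 °C. One was lys-2, which encodes a lysozyme that digests bacterial walls, with r of 0.674 at 16 °C (rho 0.698, adjusted p = 0.021) and 0.426 at 24 °C (adjusted p = 0.63), named after its values were seen. Without WN29/WN78, where cpr-3 was highest, 2 probes were called in place of 8. By likeness the nearest genes were F55G11.8 (0.517 and 0.492), M02H5.8 (0.455 and 0.463) and the claudin-like gene clc-19 (0.504 and 0.447). For asp-3, 15 positive and 10 negative calls at 16 °C (0.0646% and 0.043%) faced 1 negative call at 24 °C (0.0043%), a probe with no gene name. Without WN51/WN74 the 25 calls at 16 °C became 7, without WN43/WN40 54 and with ranks 42. Its companions were acl-1, a gene for an acyltransferase of lipid synthesis (0.461 and 0.466), the calmodulin-dependent kinase gene cmk-1 (0.512 and 0.445) and T19B10.5 (0.518 and 0.406). The last had r of 0.154 at 24 °C without the 2 arrays of most extreme asp-3 ratio.

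After asp-6, asp-5 was nearest to the neuropeptide gene nlp-18 (0.499 and 0.474) and the C-type lectin gene clec-70 (0.501 and 0.465). The 16 °C value of nlp-18 rested on few arrays, with rho of 0.198 and r of 0.153 without the 2 arrays of most extreme asp-5 ratio. After asp-5, asp-6 was nearest to ugt-18, a gene for a UDP-glucuronosyltransferase (0.511 and 0.596), and F53A9.6 (0.554 and 0.496). At 16 °C asp-5 had 9 positive calls, with none without WN70/WN48 and 22 without WN61/WN39. At 24 °C asp-6 had 17 positive and 4 negative calls, 0.0732% and 0.0172%, with none called without WN24/WN49 and 120 without WN38/WN47.

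The remaining cysteine and aspartyl proteases were taken from a list of 25 relatives, of which 17 had a probe. Among these only asp-17, the nearest probed gene to asp-1 on one side, repeated its ratios between temperatures. It ranged from -3.64 in WN1/WN80 to 4.42 in WN38/WN47 at 16 °C (median -0.12) and from -4.94 in WN58/WN38 to 4.51 in WN67/WN26 at 24 °C (median 0.59). Over the matched pairs r was 0.708 (rho 0.761, adjusted p = 2.2e-04) with the same sign in 29 of 39. Its SDs of 1.99 and 2.19 were several times the 0.56 and 0.49 of asp-1, and r between both genes was 0.0861 and -0.244. The median SD of the 17 relatives was 0.95 at 16 °C and 1.12 at 24 °C, and that of the 9 proteases 0.64 and 0.52. No relative was called with any of the 9 at either temperature.

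Around the proteases, the 10 probed genes on each side were read for repeatable ratios. Besides asp-17, ppt-1 was found 2 genes from cpr-4 and cyp-34A2 2 genes from cpr-3. Each protease had 20 to 25 neighbour probes, of which 0 or 1 repeated, compared with 1.04% of all probes. Counts this small are not far from that share. The gene ppt-1 encodes a lysosomal palmitoyl-protein thioesterase and had r of 0.723 between temperatures (adjusted p = 1.2e-04), with ratios from -4.55 to 4.58 at 24 °C. The gene cyp-34A2, a cytochrome P450, had r of 0.67 (adjusted p = 8.4e-04). Neither ppt-1 nor cyp-34A2 was called with the protease near it. The r of cpr-4 with ppt-1 was 0.0854 (adjusted p = 0.92) in the cold and 0.452 (0.2) in the warm, and that of cpr-3 with cyp-34A2 was 0.185 and -0.042. No neighbour other than asp-5 and asp-6 for each other was called with a protease.

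The inhibitors and the lysosomal partners of the proteases were read in the same way. The cystatins cpi-1 and cpi-2 inhibit cysteine proteases, and at 16 °C their r with cpr-5 was -0.604 and -0.508 (adjusted p = 0.08 and 0.11), whereas at 24 °C it was -0.0161 and -0.277. Neither passed with any protease. Of 11 lysosomal genes with a probe, 0 repeated their ratios and 2 spread more at 24 °C, glo-4, needed for gut granules (SD 0.77 and 1.59, adjusted p = 0.0011), and gana-1, an acid galactosidase (0.56 and 0.99, adjusted p = 0.015). Of the 20 vacuolar ATPase probes, 0 repeated, 2 spread more at 24 °C and 1 at 16 °C. On the whole array the shares were 1.04% for repeated ratios, 6.12% for a wider spread at 24 °C and 3% for a wider spread at 16 °C, and with lists of this size the counts lie near them. The 9 probes of the lysosomal lipases had a median r with cpr-4 of 0.24 at 16 °C and 0.409 at 24 °C, against 0.00859 and 0.0098 over all probes, and 0 of 9 were called. No member of the lysosomal, vacuolar ATPase or lipase lists was called with a protease.

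Markers of the gut and of other tissues that whole-worm RNA also holds were read last. The 16 gut markers with a probe, of 18 listed, had median r with the 9 proteases between -0.142 and 0.0558 at 16 °C and between 0.0015 and 0.124 at 24 °C, and 0 were called. Among them the ferritin gene ftn-1 spread more at 24 °C (SD 0.98 and 1.67, adjusted p = 0.027). This was 1 of 16, near the 6.12% of all probes that passed in that direction, and 0 of 16 passed with the wider spread at 16 °C. Some leaned that way without passing, among them the yolk protein gene vit-2 (SD 2.94 and 1.84, adjusted p = 0.055). All 8 pharynx markers had a positive r with cpr-1 at both temperatures, with medians of 0.339 and 0.33. With asp-5 and with asp-6, 8 of 8 were positive at 16 °C and 7 of 8 at 24 °C, and with asp-1 0 of 8 at 16 °C. The 8 neuronal probes all had a positive r with asp-6 at 24 °C, with a median of 0.4. The same held at 24 °C for asp-5 (0.327) and cpr-4 (0.272), whereas with cpr-5 1 of 8 was positive there. The 18 probes of major sperm proteins had a median r of -0.355 with cpr-3 at 24 °C and of -0.319 with asp-5 at 16 °C, with 0 of 18 positive in each case, and with cpr-5 a median of -0.281 at 16 °C and of 0.225 at 24 °C. The 11 germline probes had a median r of -0.295 with asp-4 and -0.298 with asp-6 at 24 °C, with 2 of 11 positive in each case. Of 13 moulting probes, 11 and 12 had a positive r with cpr-5, with medians of 0.22 and 0.242. Apart from ida-1 with cpr-4, none of these pharynx, neuronal, sperm protein, germline or moulting markers was called with a protease named beside it. The relations given were picked from all lists and proteases after their values were seen. All probes of a list were set against the same protease ratios on the same arrays, so they are not separate observations. The same holds for asp-5 and asp-6, whose ratios moved together. The median r over all probes lay between -0.0157 and 0.0107 for every protease. Single marker calls were -0.614 for the pharyngeal troponin gene tni-4 with asp-3 at 16 °C (adjusted p = 0.031), 0.579 for dpy-5, which processes cuticle collagen, with cpr-4 at 24 °C (0.042) and 0.562 for ida-1 of neuronal dense core vesicles with cpr-4 at 24 °C (0.049). These were named after their values were seen, and none was called at both temperatures. The part of tissue makeup or stage of the worms in the protease ratios was not tested.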

How the data were processed

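Total RNA of L3 worms was hybridised on 80 two-colour oligonucleotide arrays. The authors deposited 1 normalised log2 ratio per probe and array, and limma is the tool that the submitters' processing notes give, with no version. Base and direction are not given in the sources used here, and log2 was taken as the base limma uses. Every array at 16 °C had a median absolute ratio of 0.59 and every array at 24 °C one of 0.66, so arrays had been scaled within a temperature and spreads between temperatures depend on it. The array medians lay between -0.02 and 0.04. Spot intensities were not used here, so the number of arrays limits the precision. Gene names came from the platform's table (17447 probes with 1 gene, 5785 with none), and 17358 were joined by gene identifier to assembly WBcel235, for chromosome and gene order only.

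Computed here were Pearson r across 39 strain pairs between temperatures, the Pitman-Morgan test of spread, Pearson r of each protease with 23231 other probes within a temperature, and the difference of its Fisher z between temperatures. All p-values are two-sided, with Benjamini-Hochberg adjustment over all probes at 0.05, and single relations also used 100000 permutations. Each strain pair stands on 1 array per temperature, so the spread between arrays holds technical error too. The 3 genes with the highest likeness are named for each protease, and repeatable genes among the 10 on each side, besides list members called at both temperatures, of which there were none. The proteases and lists were chosen with earlier results of these data known. Alternatives were scaled arrays, scaled temperatures, a threshold of 0.01, ranks, omission of recurring strains, of WN3/WN22 and of each pair, and removal of 2 principal components. Scripts were tested on simulated data and ran in Python 3.11.15 (pandas 2.3.3, scipy 1.17.1, numpy 2.4.6, matplotlib 3.10.9).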

Additional observations from a re-analysis of the deposited data

Results flagged for a closer look

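A difference between the temperatures passed its own test for the spread of cpr-5, whose SD was 0.64 in the cold and 1.05 in the warm (adjusted p = 0.04). It also passed for the r of asp-3 with fat-6, from 0.702 to -0.238 (adjusted p = 0.038), and for the r of asp-4 with 7 named genes. These were rps-13, from -0.636 to 0.396 (adjusted p = 0.0056), ubq-2, from -0.598 to 0.374 (0.018), and rps-25, from -0.639 to 0.278 (0.024). They were further C27C7.5, from -0.553 to 0.379 (0.029), and the ciliary gene mks-3, from -0.434 to 0.506 (0.029). In the other direction went idpp-4, from 0.418 to -0.563 (0.018), and R06A10.4, from 0.536 to -0.419 (0.024). When single pairs were left out in turn, the number of differences called with asp-4 lay between 3, without WN4/WN73 or WN45/WN12, and 22, without WN61/WN39. With ranks none of the differences named here passed. The adjusted p was then 0.23 for fat-6 and 0.083 to 0.25 for the 7 genes with asp-4. Without the recurring strains cpr-5 (0.075), fat-6 (0.067), rps-25 (0.11) and C27C7.5 (0.17) did not pass, whereas the others did.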

How the results depend on the processing

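Of 312 single values recomputed under the alternatives, 258 kept their direction and side of the threshold, 17 passed the threshold anew, 31 fell short of it and 6 turned their sign. The sign turned for r between temperatures of cpr-4 with ranks (-0.0136) and with single pairs left out (-0.0757 to 0.179), of cpr-5 with 2 principal components removed (-0.105) and with single pairs left out (-0.0968 to 0.17), and of asp-4 with single pairs left out (-0.107 to 0.0534), and for the spread of asp-5 with ranks (0.0443). None of these values had passed a test. The number of proteases whose spread differed was 0 in place of 1 with scaled arrays, scaled temperatures, ranks, a threshold of 0.01 or without the recurring strains, and 0 to 1 with single pairs left out. The number of protease pairs called at 16 °C was 0 in place of 1 with ranks and 0 to 1 with single arrays left out, where WN70/WN48 ended the call. At 24 °C it was 1 in place of 0 without the recurring strains, and 0 to 1 with single arrays left out. The count of repeatable ratios, 0 of 9, did not change under any alternative run. Calls with cpr-1 at 16 °C numbered 0, but 12 with ranks, and those with cpr-5 numbered 0 at each temperature, but 9 and 6 with ranks and 25 and 2 with 2 principal components removed. Those with asp-3 at 16 °C numbered 25, but 42 with ranks and 46 with the components removed. Calls with asp-4 numbered 63 at 16 °C and 53 at 24 °C, but 3 and 200 with ranks, and 55 and 6 without the recurring strains. Those with cpr-4 at 24 °C numbered 76, but 20 with ranks and 349 with 2 principal components removed. Those with asp-6 at 24 °C numbered 21, but 56 without the recurring strains and 0 with the components removed. With both temperatures together, 507 probes were called with cpr-4 and 208 with asp-4. The cause of these shifts was not tested.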

Other observations

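The ratio of a protease at one temperature was also set against that of the other 8 at the other temperature over the 39 pairs, 72 relations in all, a comparison added after the data were seen. The strongest was between cpr-4 at 16 °C and cpr-5 at 24 °C, with r of -0.656 (rho -0.636, permutation p 2.0e-05 for r and 4.0e-05 for rho) and opposite signs in 30 of 39 pairs. Without the 2 pairs farthest from the median it was -0.64. Over all probes it did not pass, with an adjusted p of 0.067 from cpr-4 and 0.13 from cpr-5. For cpr-1 at 16 °C with cpr-5 at 24 °C r was -0.586 (adjusted p = 0.34 and 0.3). Within a temperature, r of cpr-5 with cpr-4 was 0.14 at 16 °C and 0.14 at 24 °C.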
